A study of Mus musculus with 6 samples.

Results

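The genes described here are 10 known transcriptional targets of YAP, chosen by name among 52636 genes of the deposited count table. They are Cyr61, Ctgf, Tgfb2, Axl, Crim1, Nt5e, Amotl2, Ajuba, Ptpn14 and Ankrd1, and each matched 1 row (Cyr61 and Ctgf are the table's names for Ccn1 and Ccn2). YAP was not perturbed in these samples, so that the genes answer to YAP is background knowledge from other systems, mostly cultured cells. RNA was sequenced from pools of mouse forebrain cells taken at E12.5 and sorted for the surface protein Prominin1, which marks radial glia, the neural progenitors of the cortex. Libraries labelled SmadNes came from embryos with genotype Smad1wt/fl, Smad5wt/fl and Nestin:Cre+/0. Control libraries came from littermates with genotype Smad1wt/fl, Smad5wt/fl and Nestin:Cre0/0, which carry the same floxed copies and no Cre. In each case 1 copy of Smad1 and of Smad5 was floxed and the other wild type. The background was mixed (CD1, 129/ola and C57BL6). There were 3 pools per genotype, named SF3, SF4 and SF5_6 in both, and the labels do not say how many embryos made up a pool. Per the labels, these were the 3 sample pairs with the best RNA integrity. Nestin:Cre acts in neural progenitors and their progeny, so cells of other origin in the sort would keep the floxed copies.

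YAP is the effector of the Hippo pathway. When the kinases LATS1 and LATS2 are inactive, YAP and its relative TAZ (gene Wwtr1) enter the nucleus and act through TEAD factors, which bind DNA at the core sequence CATTCC. Among the best known targets are secreted matrix proteins and ligands, surface receptors, and proteins that in turn bind YAP or LATS and act back on the pathway. In the embryonic brain YAP is known from progenitors that line the ventricle.

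RefSeq promoters (GRCm38.p6, 250 bases before to 50 after the gene start) were found for 9 of the 10 genes. The TEAD core CATTCC, searched on both strands (GGAATG on the other), lay in 7 of these 9 promoters, with 9 matches in all, against 14.7% of 32851 promoters of the same length. The promoters of Tgfb2 and Nt5e held no match in this window, and no promoter of Ctgf was found. For Amotl2, Nt5e and Ankrd1 the RefSeq window lay inside the gene span given below from GENCODE M21. A match is a run of letters and not a measured binding site. The matches are shown because TEAD binding is the route by which YAP reaches its targets. Capitals mark the match, all sequences run in the direction of the gene, and the distance is that from the first base of the match to the start. The Cyr61 promoter (chr3:145649936-145650235, minus strand), with its match 103 bases before the start, is given whole.
Cyr61: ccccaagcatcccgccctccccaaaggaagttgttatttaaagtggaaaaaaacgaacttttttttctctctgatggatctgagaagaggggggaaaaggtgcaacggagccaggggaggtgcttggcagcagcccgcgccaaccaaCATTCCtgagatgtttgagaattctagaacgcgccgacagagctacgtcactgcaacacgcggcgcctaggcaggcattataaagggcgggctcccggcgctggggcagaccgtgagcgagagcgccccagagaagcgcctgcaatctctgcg

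The other promoters are shown around each match. The 2 matches of Ankrd1 (chr19:36120034-36120069 and chr19:36119947-36119982, minus strand) began 210 and 123 bases before the start. Amotl2 (chr9:102717724-102717759, plus strand) had its match at 65 bases. Those of Ajuba (chr14:54577827-54577862 and chr14:54577805-54577840, minus strand) lay at 186 and 164 bases. The match in Axl (chr7:25788946-25788981, minus strand) lay at 233 bases, that in Crim1 (chr17:78200154-78200189, plus strand) at 79 bases and that in Ptpn14 (chr1:189728107-189728142, plus strand) at 146 bases.
Ankrd1, far: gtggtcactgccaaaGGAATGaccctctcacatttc
Ankrd1, near: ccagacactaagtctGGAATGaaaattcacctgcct
Amotl2: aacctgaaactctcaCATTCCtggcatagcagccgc
Ajuba, far: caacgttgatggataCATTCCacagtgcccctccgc
Ajuba, near: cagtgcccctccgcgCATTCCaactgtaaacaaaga
Axl: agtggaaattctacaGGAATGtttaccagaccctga
Crim1: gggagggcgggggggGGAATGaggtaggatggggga
Ptpn14: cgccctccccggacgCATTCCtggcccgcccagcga

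The libraries held between 32997423 and 40744672 expected counts. Values are CPM, that is counts per 1000000 with TMM scaling between libraries. The floxed genes stood higher under the SmadNes label in 3 of 3 pairs, with Smad5 at 391 ± 18.8 CPM against 292 ± 6.74 CPM in control and Smad1 at 88.5 ± 3.83 against 75.6 ± 2.58 CPM (SD, n = 3 each). These are counts of whole genes and do not check the deletion, so each direction given here rests on the labels. Same-named pools of the 2 genotypes deviated together, and the pool name is used below as a replicate block. P-values with genotype alone are set against the spread between pools. With the replicate block, and in the test of the pool name, they are set against the spread left after pool and genotype are both fitted. All 10 marker genes of radial glia, led by Vim and Nes, passed the filter, and their summed level lay between 1837 and 2207 CPM in the libraries labelled SmadNes and between 1712 and 2137 CPM in control. The 8 markers of neurons were led by Dcx and Map2. They summed to between 4127 and 5128 CPM in the libraries labelled SmadNes and between 4145 and 5874 CPM in control. Sums of CPM are not corrected for exon length, so the sums of different lists are not compared. Per kb of merged exons, Vim averaged 158 CPM, Nes 71.75, Dcx 93.4 and Map2 67.8. A value in this bulk RNA may come from radial glia or from neurons. Fewer cells of a type cannot be told apart from less RNA per cell.

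The 10 genes were present at very different levels. Per kilobase of merged exons, the angiomotin Amotl2 stood highest at a mean over the 6 libraries of 22.2 CPM per kb (range 20.8 to 24.7), followed by Ajuba at 15.1 (12.1 to 18) and Axl at 8.46 (6.89 to 10.5). Tgfb2 stood at 5.21 CPM per kb (4.15 to 5.92) and Cyr61 at 5.003 (4.16 to 5.67), with ranges that overlapped. Crim1 followed at 3.66 CPM per kb (2.79 to 4.36), its range meeting the low end of Cyr61. Ctgf at 1.27 CPM per kb (0.829 to 2.17) and Ptpn14 at 0.950 (0.634 to 1.53) also overlapped each other. Nt5e stood at 0.0793 CPM per kb (0.0459 to 0.124). Ankrd1 had 0 counts in all 6 libraries. The other neighbours in this order did not overlap. Among 14109 protein-coding genes past the filter on low counts, the per-kb level of Amotl2 lay at percentile 85.1, Cyr61 at 46.7, Ctgf at 22.6 and Nt5e at 1.23. Of the CCN genes often read as reporters of YAP, Ctgf stood below Cyr61 in every library on the per-kb scale.

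**Figure D1:**
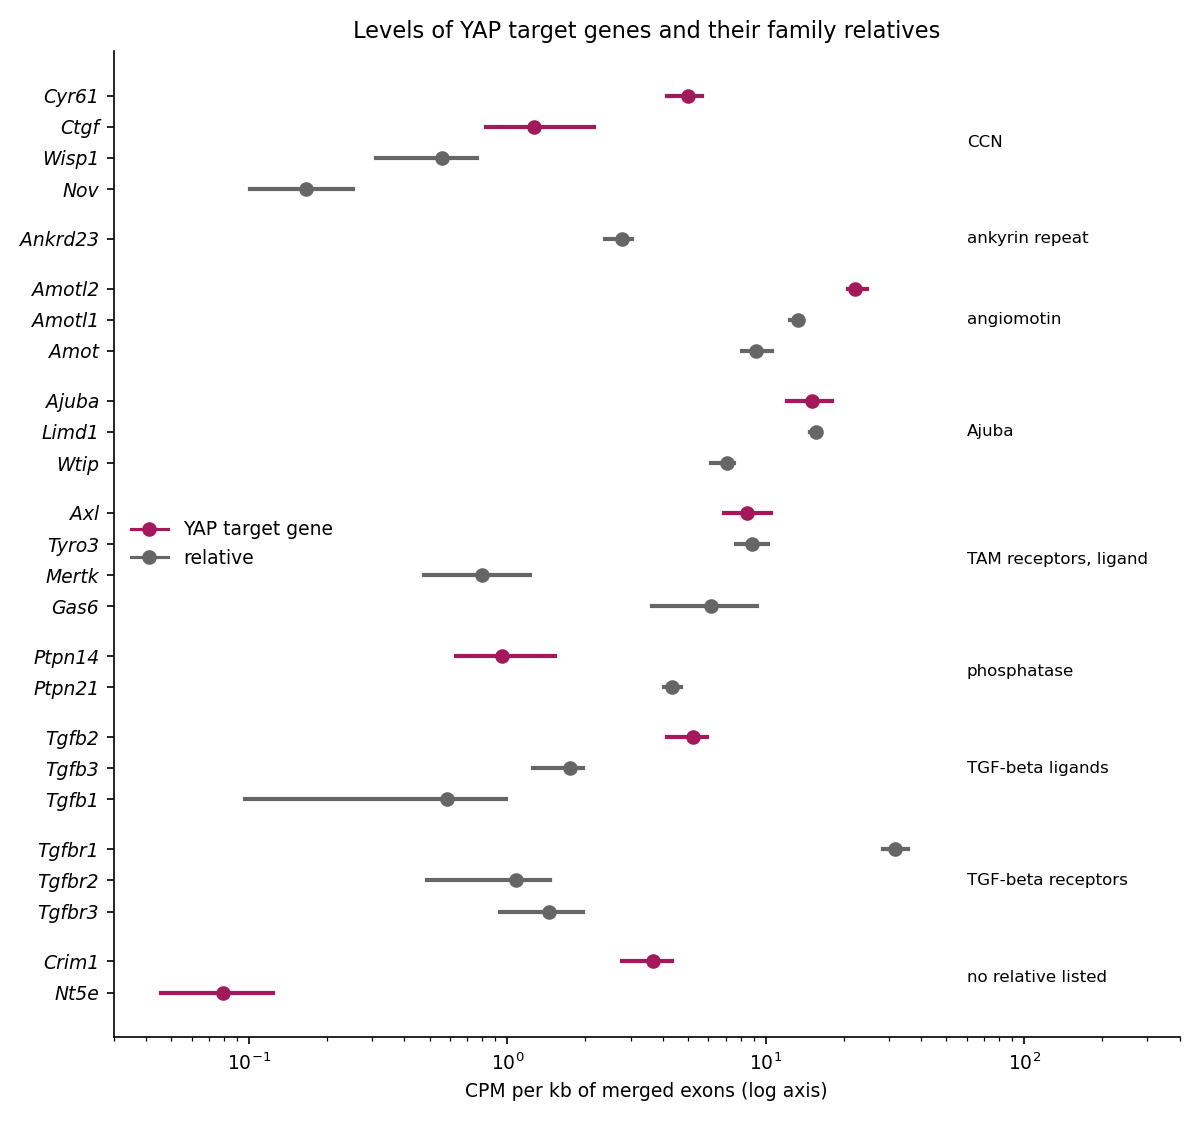
Levels of the YAP target genes and of family relatives past the filter, in CPM per kb of merged exons on a log axis; points are means and bars the range over all 6 libraries. Amotl2 stood above its relatives Amotl1 and Amot, Tgfb2 above Tgfb3 and Tgfb1, and Ptpn14 below Ptpn21; Ankrd1, at 0 counts, is not drawn.

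Relatives of these genes set the levels in context. Amotl2 was the highest of the 3 angiomotins, with Amotl1 at 13.3 and Amot at 9.18 CPM per kb. Ajuba stood beside Limd1 at 15.7 CPM per kb, with Wtip at 7.08. Of the receptors that bind the ligand Gas6, Axl and Tyro3 (8.85 CPM per kb) stood at similar levels and Mertk was at 0.801, while Gas6 itself was at 6.14. Tgfb2 was the most abundant TGF-beta ligand, with Tgfb3 at 1.75 and Tgfb1 at 0.586 CPM per kb. Of the receptors, Tgfbr1 stood at 31.6, Tgfbr3 at 1.45 and Tgfbr2 at 1.08 CPM per kb. Ptpn21, the closest relative of Ptpn14, was at 4.32 CPM per kb. In the CCN family Wisp1 was at 0.561 and Nov at 0.166 CPM per kb, below Cyr61 and Ctgf. Ankrd23, a relative of Ankrd1, was at 2.79 CPM per kb. Wisp2, Wisp3 and Ankrd2 did not pass the filter.

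No YAP target gene differed between the genotypes by more than the spread between pools. EdgeR's quasi-likelihood test called 0 of the 9 genes past the filter at an adjusted p below 0.05, against 0% of all 16869 genes tested, and each of the 9 had an adjusted p of 1. At an unadjusted p below 0.05 it found 0 of the 9 and 177 of all genes (1.05%). The SmadNes and control libraries overlapped for each of the 9, while they did not overlap for 4.77% of all genes. The median log2 difference was 0.03 over the 9 genes and -0.000377 over all genes. With the replicate block the test again called 0 of 9, against 0.0237% of all genes. DESeq2 also called 0 of 9 without the block (0.0247% of all genes) and with it (0.0827%), as did limma-voom (0.00593%).

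**Figure D2:**
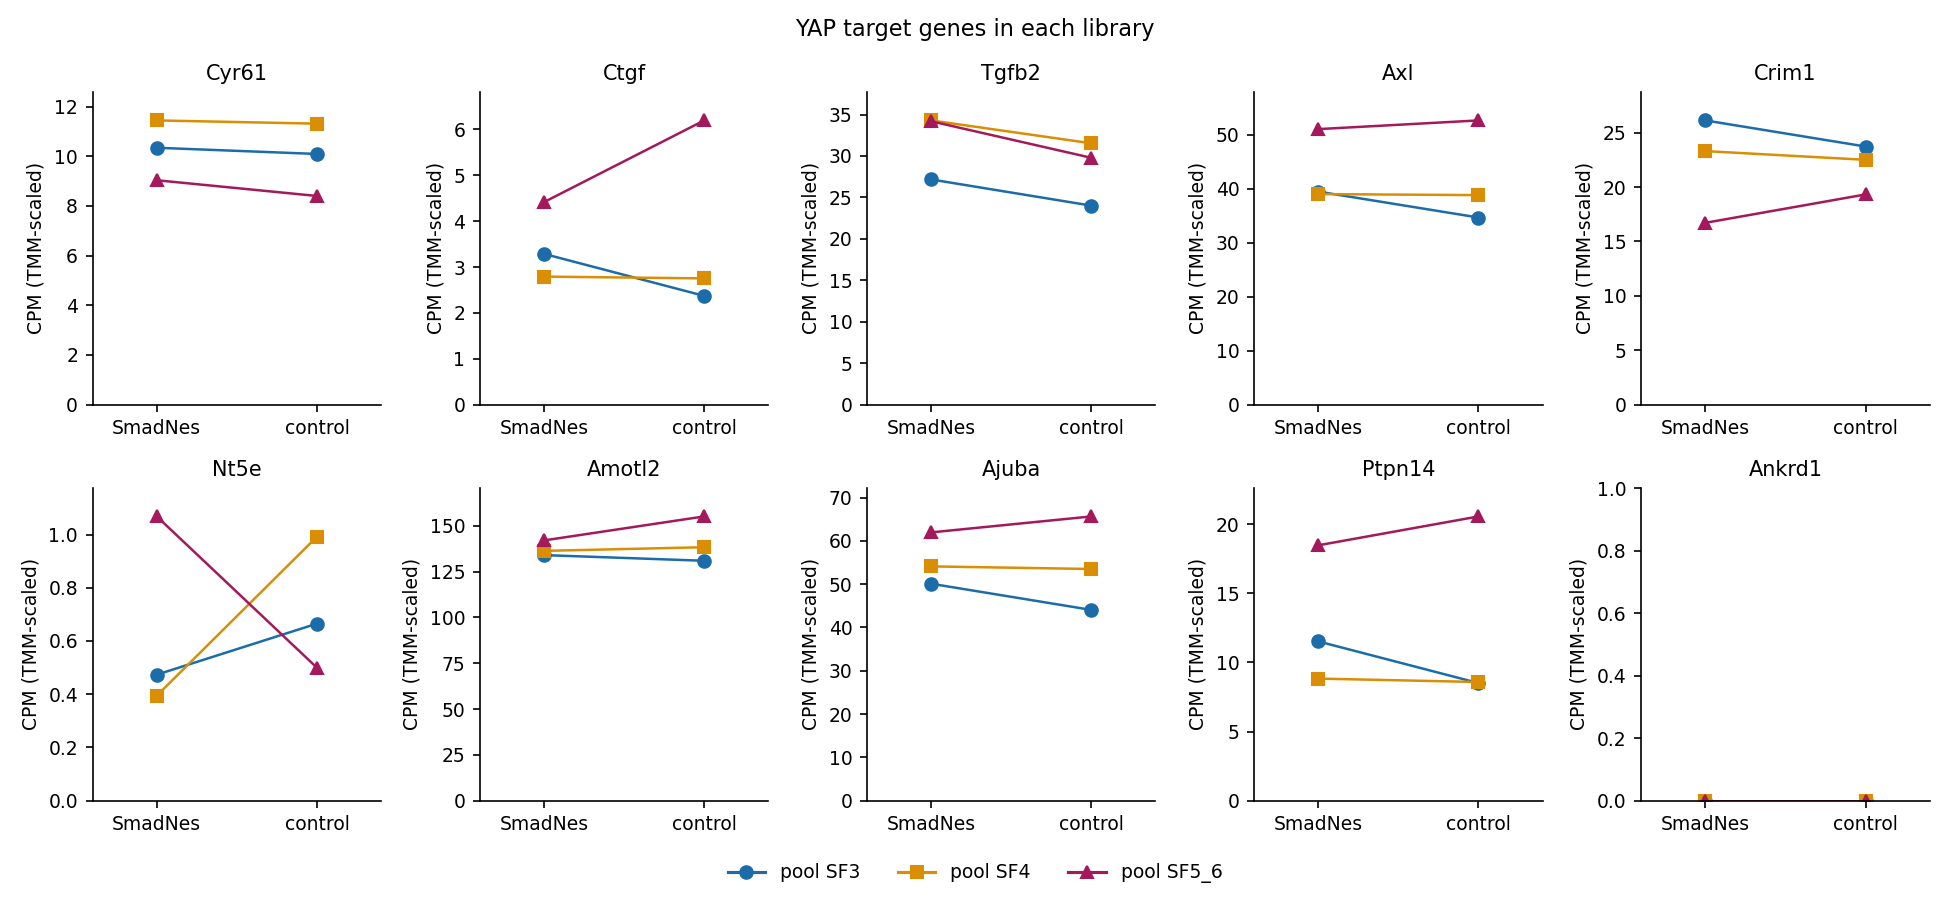
CPM of each YAP target gene in the 6 libraries; lines join the SmadNes and control libraries of 1 pool name, and each axis starts at 0. The genotypes overlap in every panel, SF5_6 stands apart for most genes, and Ankrd1 is at 0 throughout.

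Among the secreted proteins, the CCN pair differed in how steady it was within pools. Cyr61 (ENSMUSG00000028195.4, GRCm38 chr3:145646976-145649981), a matrix protein of the CCN family, had 10.3, 11.4 and 9.03 CPM in the SmadNes pools SF3, SF4 and SF5_6, against 10.1, 11.3 and 8.40 CPM in the control pools. Within each pair the SmadNes library was slightly higher, by log2 0.03, 0.02 and 0.10. The fold was 1.03 with a 95% interval of 0.806 to 1.32, and 0.913 to 1.17 with the replicate block. Ctgf (ENSMUSG00000019997.11, chr10:24595442-24598683), the related CCN protein, had 3.29, 2.79 and 4.42 CPM in the SmadNes pools, against 2.37, 2.75 and 6.20 CPM in the control pools. Its pairs went opposite ways, with log2 differences of 0.46, 0.02 and -0.48 in the same order. The fold of 0.928 had an interval of 0.472 to 1.83, or 0.726 to 1.31 with the block.

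Tgfb2 (ENSMUSG00000039239.14, chr1:186622792-186705989) encodes a TGF-beta ligand. It had 27.2, 34.3 and 34.2 CPM in the SmadNes pools SF3, SF4 and SF5_6, against 24.01, 31.5 and 29.8 CPM in the control pools. It was higher in 3 of 3 pairs, by log2 0.18, 0.12 and 0.20, although the groups overlapped. Of the 9 genes 2, Cyr61 and Tgfb2, had the same sign in all 3 pairs, against 28.1% of all genes. The fold was 1.12, with an interval of 0.890 to 1.41 and with the block of 1.03 to 1.22. With the block its unadjusted p was 0.0116, a level below 0.05 that 6.23% of all genes reached, and its adjusted p was 0.612, so it did not pass.

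The receptors and surface proteins had folds on both sides of 1, with intervals that included 1. Axl (ENSMUSG00000002602.16, chr7:25757273-25788705), a receptor tyrosine kinase, had 39.5, 39.0 and 51.0 CPM in the SmadNes pools, against 34.7, 38.8 and 52.6 CPM in the control pools. Both SF5_6 libraries stood above the rest, and the fold between genotypes was 1.03 (interval 0.757 to 1.39, with the block 0.947 to 1.13). Crim1 (ENSMUSG00000024074.7, chr17:78200248-78376592), a transmembrane protein that binds BMPs, had 26.1, 23.3 and 16.7 CPM in the SmadNes pools, against 23.7, 22.5 and 19.3 CPM in the control pools. Here the SF5_6 libraries were the lowest, and the fold was 1.01 (0.753 to 1.35, with the block 0.888 to 1.13). Exons of the antisense gene Fez2, which averaged 13.7 CPM, overlap those of Crim1, and the authors quantified with RSEM's setting for stranded libraries. Antisense genes that overlap exons of Ctgf, Ptpn14 and Tgfb2 averaged at most 0.141 CPM.

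Nt5e (ENSMUSG00000032420.8, chr9:88327197-88372092) encodes the surface enzyme CD73, which makes adenosine from AMP. It had 18, 13 and 37 counts in the SmadNes pools SF3, SF4 and SF5_6, against 23, 40 and 17 counts in the control pools. These were 0.473, 0.395 and 1.07 CPM against 0.665, 0.992 and 0.499 CPM. Counting error is large at this level, with an exact 95% Poisson interval of 6.92 to 22.2 for the lowest count and 28.6 to 54.5 for the highest. The pairs pointed both ways, at log2 -0.45, -1.22 and 1.02, and neither a genotype nor a pool was set apart. These 2 intervals, of the lowest and the highest of 6 counts, do not overlap. The fold of 0.893 had an interval of 0.409 to 1.95, which measures the spread between pools.

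The genes that feed back on the pathway ranged from the steadiest of the 9 to one of the most variable. Amotl2 (ENSMUSG00000032531.15, chr9:102716672-102733418), which binds YAP and holds it outside the nucleus, had 134, 136 and 142 CPM in the SmadNes pools, against 131, 138 and 155 CPM in the control pools. Its highest library was 1.18 times its lowest, and the fold between genotypes was 0.972 (0.862 to 1.09, with the block 0.913 to 1.04). Ajuba (ENSMUSG00000022178.10, chr14:54567472-54577558), a LIM protein that binds LATS kinases, had 50.1, 54.1 and 62.0 CPM in the SmadNes pools, against 44.1, 53.5 and 65.6 CPM in the control pools. In both genotypes SF3 was lowest and SF5_6 highest, and the fold was 1.02 (0.785 to 1.32, with the block 0.941 to 1.12). Ptpn14 (ENSMUSG00000026604.17, chr1:189728268-189876695), a phosphatase that binds YAP, had 11.5, 8.83 and 18.5 CPM in the SmadNes pools, against 8.50, 8.58 and 20.6 CPM in the control pools. Both SF5_6 libraries stood well above the other 4, and the fold between genotypes was 1.03 (0.499 to 2.13, with the block 0.895 to 1.27).

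**Figure D3:**
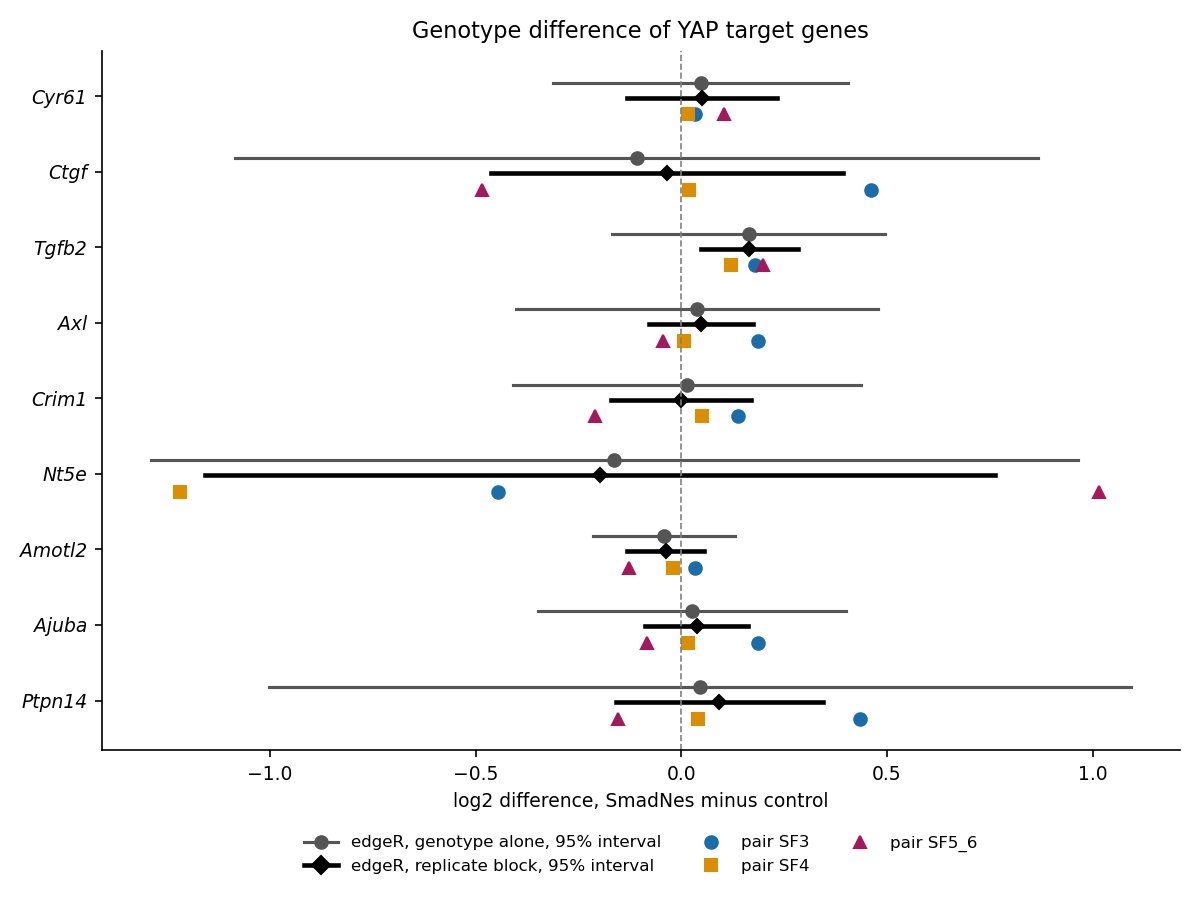
Log2 difference, SmadNes minus control, of the 9 YAP target genes past the filter: edgeR with genotype alone (circles, 95% interval), edgeR with the replicate block (diamonds, 95% interval) and the 3 pairs. Each interval with genotype alone includes 0. With the block that of Tgfb2 starts just above 0 before adjustment. Pairs lie on both sides of 0 for every gene but Cyr61 and Tgfb2, and most widely for Ctgf, Nt5e and Ptpn14.

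Ankrd1 (ENSMUSG00000024803.8, chr19:36111961-36120099) encodes an ankyrin repeat protein best known from heart muscle and is a standard YAP reporter in cultured cells. It had 0 counts in each of the 3 SmadNes and the 3 control libraries. A count of 0 allows up to 3 counts, or at most 0.0910 CPM per library, counting error only. Its promoter nevertheless held 2 of the TEAD cores printed above, which says only that the letters are there.

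Other known targets of YAP were not called either. Of 13 further genes of a published YAP/TAZ signature of 22 genes, all passed the filter, edgeR called 0 with or without the block, 8 were higher and the median log2 difference was 0.01. The smallest unadjusted p belonged to Lats2, the kinase that inhibits YAP, at 27.1 ± 0.648 CPM in the libraries labelled SmadNes and 26.2 ± 0.739 CPM in control (SD, n = 3 each). Myof, a membrane repair protein, stood at 4.25 ± 2.10 and 3.51 ± 1.06 CPM. Foxf2, a transcription factor of brain pericytes, stood at 0.927 ± 0.441 and 1.102 ± 0.424 CPM. The most abundant were Fjx1 at 76.4 ± 5.99 and 75.3 ± 9.02 CPM, Asap1 at 71.6 ± 9.21 and 71.1 ± 9.27 CPM, and Arhgef17 at 69.6 ± 1.56 and 69.7 ± 4.27 CPM. Among 25 genes of the Hippo pathway edgeR called 0 with or without the block. Yap1 stood at 124 ± 20.3 CPM in the libraries labelled SmadNes and 118 ± 26.0 CPM in control, Wwtr1 at 55.9 ± 5.64 and 51.96 ± 3.19 CPM, and Tead1 at 266 ± 14.0 and 260 ± 37.3 CPM.

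The pools differed more than the genotypes. With pool name and genotype both as terms, edgeR called 0.0237% of all genes between genotypes. Of the 9 genes, 7 differed between pool names in edgeR's quasi-likelihood test with genotype kept as a term, against 28.8% of all 16869 genes. DESeq2's likelihood-ratio test called 6 of the 9, all but Cyr61 of these 7, against 18.2%. Ctgf, Ptpn14, Axl and Ajuba were higher in both SF5_6 libraries than in the other 4, and so was Amotl2, which did not pass. Cyr61 and Crim1 were lower in both SF5_6 libraries than in the other 4. These were 5 genes above and 2 below, against 23.2% and 24.8% of all genes, or 7 of 9 against 48% in either direction. Counting only those that passed, 4 stood above (12.2% of all genes) and 2 below (12.1%). Cyr61 and Ctgf of the CCN family thus stood apart in SF5_6, in opposite directions. For their relatives Wisp1 and Nov, SF5_6 overlapped the other pools. Wisp1 still differed between pool names in edgeR's test (adjusted p 0.0373), while Nov did not pass (0.0838). Of the 16 family relatives past the filter, 9 differed between pool names, against 28.8% of all genes. Both SF5_6 libraries stood above the other 4 for 5 of the relatives (23.2% of all genes) and below for 2 (24.8%).

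Ptpn14 showed the widest pool difference, at 19.5 CPM in SF5_6, 8.71 CPM in SF4 and 10.0 CPM in SF3 (means of both genotypes). On the log2 scale SF5_6 lay 1.07 above the mean of the other pools (adjusted p 0.000558). Ctgf stood at 5.31, 2.77 and 2.83 CPM in SF5_6, SF4 and SF3, log2 0.92 higher in SF5_6 (adjusted p 0.0182). Axl was higher by log2 0.45 (adjusted p 0.00163) and Ajuba by log2 0.34 (0.00407). Crim1 differed by log2 -0.41 (adjusted p 0.0127) and Cyr61 by log2 -0.31 (0.0432). Tgfb2 differed in another way, with SF3 lowest at 25.6 CPM against 32.9 in SF4 and 32.0 in SF5_6 (adjusted p 0.00542). Amotl2 (0.0790) and Nt5e (0.753) did not pass.

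**Figure D4:**
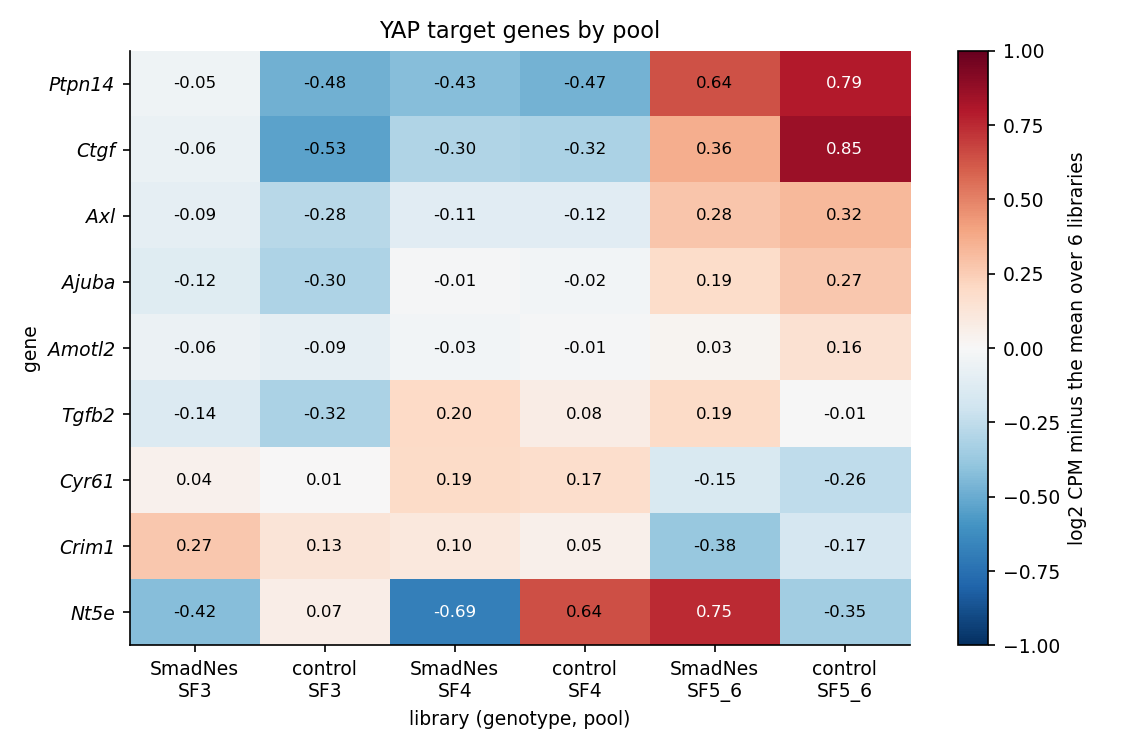
Log2 CPM of each YAP target gene past the filter, minus its mean over the 6 libraries, by pool and genotype. Ptpn14, Ctgf, Axl and Ajuba are red in both SF5_6 libraries, Cyr61 and Crim1 blue there, and Nt5e follows neither pool nor genotype.

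These calls rested on the libraries unequally. Ptpn14, Axl, Ajuba and Tgfb2 passed when any 1 of the 6 libraries was left out. Ctgf did not pass without control SF5_6 (adjusted p 0.273), its highest library, nor Crim1 without SmadNes SF5_6 (0.106), its lowest. Cyr61 did not pass without any 1 of the libraries (0.0524 to 0.239), while Amotl2 passed without SmadNes SF5_6 (0.0439). With both SF5_6 libraries left out, an alternative chosen after seeing the data, SF4 against SF3 differed for 1 of 9, Tgfb2 (adjusted p 0.00227), against 7.39% of all genes.

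The other YAP targets and the pathway genes varied between pools as well. Of the 13 further targets, 9 differed between pools, against 28.8% of all genes, and these 9 stood above in SF5_6, against 12.2% of all genes. F3 also stood above and did not pass. Of the 25 Hippo genes 12 differed, 5 of them with both SF5_6 libraries above the other 4 (12.2% of all genes) and 6 below (12.1%). Yap1 had 106, 120 and 146 CPM in the SmadNes pools SF3, SF4 and SF5_6, against 92.2, 119 and 144 CPM in the control pools, and differed between pools at an adjusted p of 0.000465. Wwtr1 was highest in SF4, at 62.2 CPM in the SmadNes and 55.4 CPM in the control library (adjusted p 0.0491).

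Markers of radial glia, neurons and some other cell types moved with the pools too, and no marker was at 0 in all libraries. The radial glia markers summed to 1837, 2020 and 2207 CPM in the SmadNes pools SF3, SF4 and SF5_6, against 1712, 1948 and 2137 CPM in the control pools. Of these 10 markers 8 differed between pools (28.8% of all genes), and 5 stood above in both SF5_6 libraries (23.2% of all genes). The neuronal markers summed to 5128, 4990 and 4127 CPM in the SmadNes pools, against 5874, 4916 and 4145 CPM in the control pools. Of these 8 markers 6 differed between pools (28.8% of all genes), and 4 stood below in both SF5_6 libraries (24.8% of all genes). In both genotypes the radial glia sum was thus highest, and the neuronal sum lowest, in SF5_6, where Ptpn14, Ctgf, Axl and Ajuba were highest. Between genotypes edgeR called 0 markers in any of the lists, with or without the block. The 12 mesenchymal and mural markers, led by Col3a1 and Col1a1, summed to 878, 266 and 1279 CPM in the SmadNes pools SF3, SF4 and SF5_6, against 629, 431 and 1015 CPM in the control pools. The sums were highest in SF5_6 and lowest in SF4 in both genotypes. Here 10 of 12 markers differed between pools (28.8% of all genes), with 8 above (23.2%) and 1 below (24.8%) in both SF5_6 libraries. SF4 minus SF3 was log2 -0.20 for Ptpn14, -0.04 for Ctgf, 0.07 for Axl and 0.19 for Ajuba. The 7 erythroid genes, led by Hbb-y and Hba-a1, summed to between 70.3 and 543 CPM in the SmadNes pools and between 68.5 and 933 CPM in the control pools, highest in SF5_6. All 6 erythroid genes past the filter differed between pools (28.8% of all genes), and 5 stood above in both SF5_6 libraries (23.2%). Endothelial markers, led by Kdr and Cdh5, summed to between 21.9 and 26.2 CPM in the SmadNes pools and between 19.7 and 26.8 CPM in the control pools. Most of this sum was Kdr, at 12.4 to 17.4 CPM. Cdh5 was lowest in SF4, at 0.910 CPM in SmadNes and 1.44 CPM in control, against 2.97 to 3.42 CPM in the other libraries. Of the 8 endothelial markers past the filter 2 differed between pools, near the share of all genes (28.8%). In both SF5_6 libraries 3 stood above (23.2% of all genes), and the median of the 8 was log2 0.66 higher in SF5_6. Microglial and macrophage markers, led by Mrc1 and Csf1r, were 176, 25.4 and 130 CPM in the SmadNes pools, against 163, 28.2 and 114 CPM in the control pools, highest in SF3. All 10 of these markers differed between pools (28.8% of all genes), with 0 above (23.2%) and 0 below (24.8%) in both SF5_6 libraries. The part of these cells in the pool differences of the YAP targets was not tested.

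**Figure D5:**
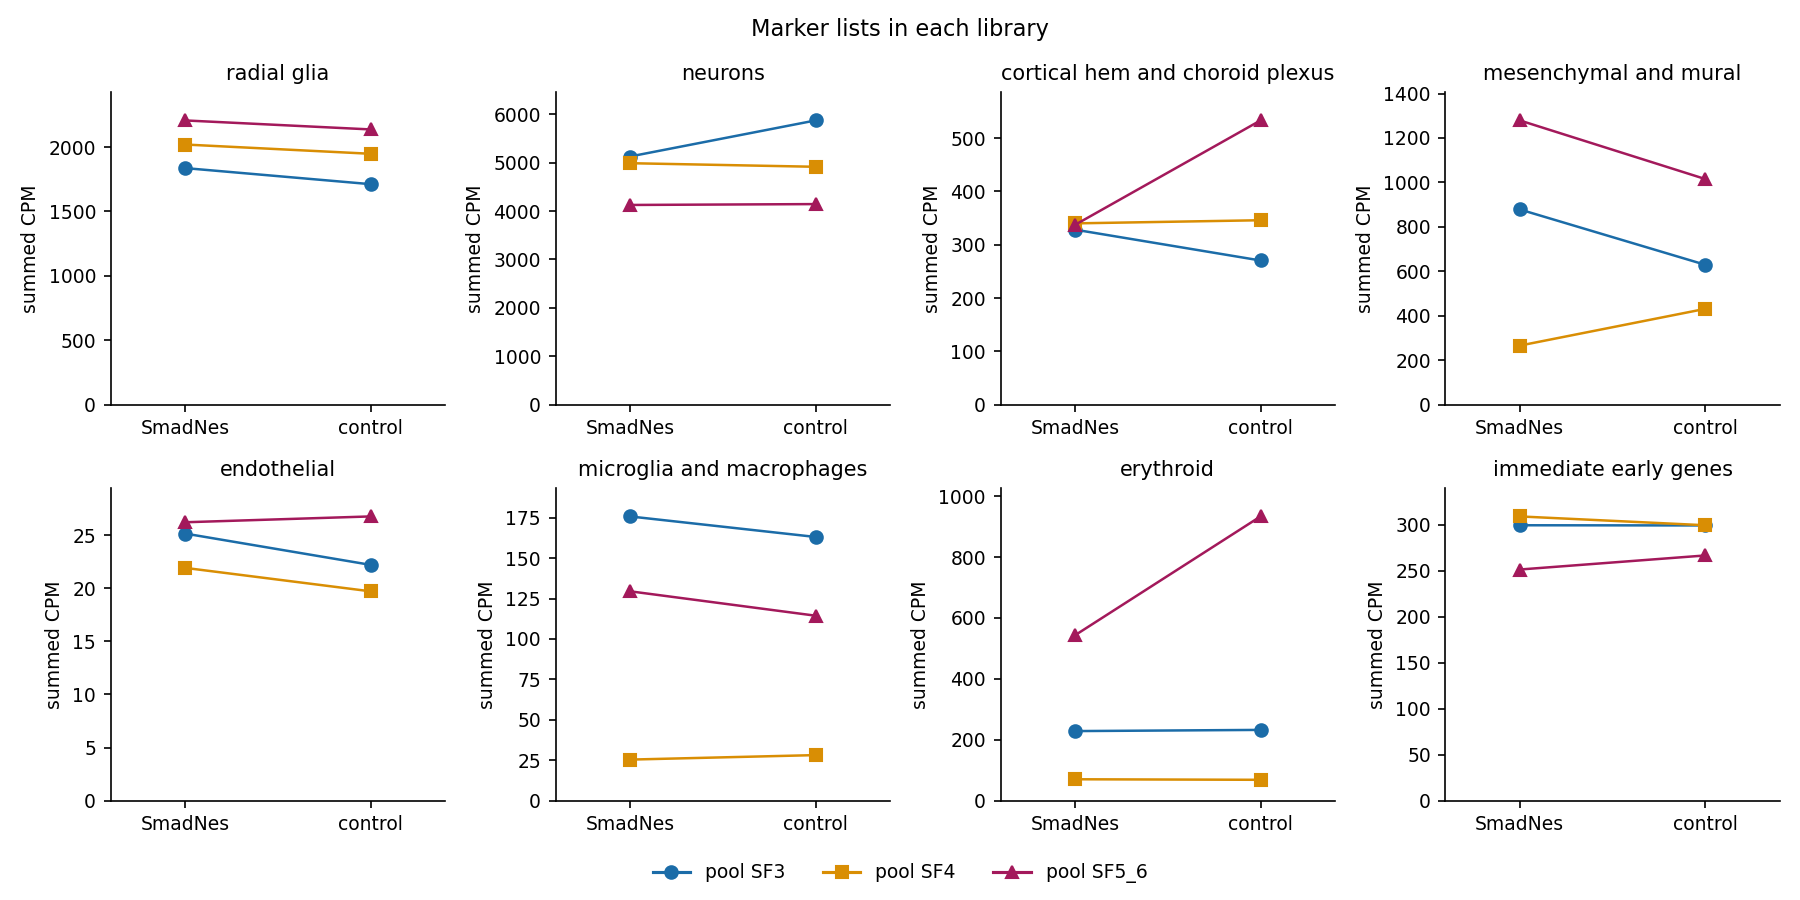
Summed CPM of the marker lists in each library; lines join the SmadNes and control libraries of 1 pool name, and each axis starts at 0. Mesenchymal and erythroid sums are highest in SF5_6, neuronal sums lowest there, and the cortical hem and choroid plexus sum is highest in the control SF5_6 library.

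A further list had its extremes in the same libraries as Ctgf. The 8 markers of cortical hem and choroid plexus, led by Ttr and Rspo2, summed to 328, 340 and 337 CPM in the SmadNes pools SF3, SF4 and SF5_6, against 270, 346 and 533 CPM in the control pools. Like Ctgf, this sum was highest in control SF5_6 and lowest in control SF3, but the 4 libraries between stood in another order. Ttr, the most abundant of the 8, had 193, 144 and 102 CPM in the SmadNes pools, against 146.5, 169 and 210 CPM in the control pools. Rspo2 was highest in SF5_6 in both genotypes, at 91.1 CPM in SmadNes and 120 CPM in control. Of the 8 markers 5 stood above in both SF5_6 libraries (23.2% of all genes), and 5 differed between pools (28.8%). Meanwhile the mesenchymal sum in SF5_6 was higher in the SmadNes library. The part of either in the values of Ctgf was not tested. Cyr61 is also an immediate early gene, induced within minutes of many stimuli. The 12 immediate early genes, led by Btg2 and Jun, summed to 299, 309 and 251 CPM in the SmadNes pools, against 299, 299 and 266 CPM in the control pools. Both Cyr61 and this sum were lowest in SF5_6, and the part of this in the values of Cyr61 was not tested.

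Profiles over the 6 libraries set Cyr61 and Ctgf apart from each other. Over 14191 candidate genes (mean of 1 CPM or more), those most like Cyr61 by the root-mean-square difference of centred log2 CPM were Stk3 (0.0225), Heg1 (0.0284) and Arhgef26 (0.0295). Those most like Ctgf were Gm7862 (0.0681), Ttc12 (0.0869) and Zic1 (0.0871). Ctgf itself ranked 13343 in likeness to Cyr61, and Cyr61 12373 in likeness to Ctgf, both at 0.609. The measure is not scaled for how widely a gene varies, so these ranks also reflect the size of the variation. The highest library was 2.61 times the lowest for Ctgf and 1.36 times for Cyr61. Zic1 had 190, 153 and 274 CPM in the SmadNes pools SF3, SF4 and SF5_6, against 145, 147 and 333 CPM in the control pools, the same order of pairs as Ctgf. With 6 libraries that share pools, these likenesses are descriptions only.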

How the data were processed

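RNA-seq was measured in 6 libraries. Per the labels' protocols, stranded paired-end reads were mapped by the authors (STAR 2.5.3a, GRCm38), and RSEM 1.3.0 with GENCODE M15 gave the abundances. DESeq2 1.18 is a further tool in the submitters' processing notes. The deposited values are expected counts per gene, already whole and unscaled; the rounding step is not given in these sources. Libraries were assigned by the names in the sample titles. Genes were filtered (filterByExpr), scaled (TMM) and fitted in edgeR 4.0.16 (R 4.3.3) by its quasi-likelihood method, with genotype as the term. A second test took the pool name, with genotype kept. Calls were made at a Benjamini-Hochberg adjusted p below 0.05 over all 16869 tested genes. Alternatives were DESeq2 1.42.0, limma-voom 3.58.1, other scaling (RLE), no filter, leaving out libraries, and the replicate block. Intervals of 95% use the standard error implied by the F statistic and are not adjusted. Libraries of 1 genotype differed by chi-square per degree of freedom of 10.6 to 43.9, so none was a copy. Same-named pools correlated at 0.494, 0.697 and 0.724 in their deviations from the genotype mean, so the names pair the samples. Other pairs correlated at or below -0.0582. Deviations from a mean cancel out over the pools, so these negative values add no separate support. Positions and merged exon lengths come from GENCODE M21 (GRCm38), matched for 52403 genes. EdgeR's main genotype fit, its fit with the block and its pool fit were tested on simulated data. DESeq2 with the block and limma-voom were tested only on simulated data without a genotype difference. The other fits, among them DESeq2's likelihood-ratio test, were not tested in this way.

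The 10 genes, the lists and the rule for named genes were chosen with earlier results of these data known. The rule names the 10 genes, Smad1, Smad5, Yap1, Wwtr1 and Tead1, the 3 further targets with the smallest p and the 3 most abundant, relatives past the filter, the 2 most abundant of each marker list, and the 3 genes most like Cyr61 and Ctgf.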

Additional observations from a re-analysis of the deposited data

How the results depend on the processing

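The number of YAP target genes called between genotypes was 0 under every alternative run, while the number over all genes was 0 with RLE scaling, with no filter and without any 1 library. Over all genes it was 4 with the replicate block, 7 with DESeq2, 13 with DESeq2 and the block, 1 with limma-voom, and 10, 48 and 149 with the block and the pair SF3, SF4 or SF5_6 left out. The number of genes that differed between pools was 3157 by DESeq2's likelihood-ratio test, 1250 for SF4 against SF3 only, where 1 YAP target was called, and between 3380 and 5029 without 1 library.

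None of the genotype differences of the YAP targets was called, and the sign of all but Tgfb2 changed under some alternative. Without 1 library at a time, with genotype alone, the log2 difference ran from -0.067 to 0.15 for Cyr61, -0.35 to 0.44 for Ctgf, -0.094 to 0.024 for Amotl2, -0.10 to 0.18 for Ajuba, -0.10 to 0.23 for Axl, -0.13 to 0.18 for Crim1, -0.30 to 0.59 for Ptpn14 and -0.73 to 0.14 for Nt5e. It ran from 0.06 to 0.27 for Tgfb2, -0.082 to 0.23 for Yap1, -0.063 to 0.14 for Tead1, -0.094 to 0.61 for Myof, -0.58 to 0.11 for Foxf2, -0.030 to 0.12 for Fjx1, -0.10 to 0.10 for Asap1 and -0.044 to 0.038 for Arhgef17. Leaving out 1 library of a pair mixes pool with genotype.

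With the replicate block Crim1 turned to -0.000507, with DESeq2 and the block to -0.0084 and with limma-voom to -0.0043, while Ctgf was at 0.017 with limma-voom. With the block and without the SF3 pair, Ajuba was at -0.032, Axl at -0.017, Crim1 at -0.072, Ptpn14 at -0.066, Tead1 at -0.019 and Asap1 at -0.034. Without the SF4 pair Crim1 was at -0.030, Nt5e at 0.34 and Fjx1 at -0.042, and without the SF5_6 pair Ctgf was at 0.24, Amotl2 at 0.0061 and Arhgef17 at 0.063. The cause of these changes of sign was not tested. With the block Smad5 was called (adjusted p 0.00757), and DESeq2's likelihood-ratio test did not call Cyr61 between pools (0.402).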
